A study of Homo sapiens with 6 samples.

Results

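A set of 10 genes of the replicative helicase and of origin licensing was followed in RNA from SiHa cells, an established line from a human cervical squamous carcinoma. The members were the helicase subunits MCM2, MCM3, MCM4, MCM5, MCM6 and MCM7, the helicase partner MCM10, the loading factors CDC6 and CDT1, and the licensing inhibitor GMNN. The set was chosen with earlier results of these data known, and its rows were found by symbol. A gene row of the deposited table belonged to the set when its name equalled a member. Each of the 10 symbols stood alone on 1 of the 35544 rows. Cells had received either a plasmid to overexpress the circular RNA hsa_circ_0005358 (circ_0005358, 3 libraries) or the vector plasmid (3 libraries), and polyA RNA was taken 72 h later. The study looked for mRNAs downstream of the circular RNA. The labels spell its name in several ways, which were read as the same RNA, and it was not itself measured here. The cells of both groups are 1 line after plasmid transfection, and no label says that each library is a culture of its own. The p-values therefore weigh the groups only against the variation among these libraries, part or all of which may be technical.

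Origins of replication are licensed from late mitosis through G1. The origin recognition complex, CDC6 and CDT1 load MCM2 to MCM7 onto DNA as paired rings of different subunits. In S phase CDC45 and the GINS complex join the ring and turn it into the active helicase, MCM10 takes part in that step, and geminin, the product of GMNN, binds CDT1 so that no origin is licensed again. Many of these genes are transcribed at the G1 to S boundary under E2F factors, and carcinomas that carry papillomavirus, whose E7 protein inactivates RB, are known for high MCM protein.

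Values are FPKM, fragments scaled to transcript length and to library size, so levels of different genes can be set side by side. Each library held 9976 to 10287 loci with at least 1 FPKM. Loci above 0 FPKM numbered 27803 in vector replicate 3 and 23227 to 23834 in the other 5 libraries. The depth implied by the value of 1 fragment was 71.1% of the deepest library in circ_0005358 replicate 2 and between 93.6% and 100% in the other 5. The correlation of log2 values was 0.932 to 0.939 for libraries of the same group and 0.908 to 0.917 for libraries of different groups. Of 8 epithelial markers, 6 were at FPKM of at least 1 in every library, led by KRT17 and KRT7, while KRT5 lay under 0.1 FPKM in every library. Their summed level was 617 to 695 FPKM with circ_0005358 and 1253 to 1323 FPKM with vector, so these markers differed between the groups, and their part in the results on the 10 genes was not tested. Sums of leukocyte markers were 1.48 to 16.4 FPKM with circ_0005358 and 10.4 to 13.4 FPKM with vector, nearly all of it CD14, with PTPRC and LYZ under 0.1 FPKM in every library. Fibroblast marker sums were 2.67 to 3.12 FPKM with circ_0005358 and 7.06 to 10.6 FPKM with vector, with LUM as the largest part. The other fibroblast markers lay under 1 FPKM and did not share a direction. COL3A1 (mean 0.821 FPKM with circ_0005358 and 0.109 FPKM with vector), DCN and PDGFRB were higher with circ_0005358, without overlap. COL1A1 was lower without overlap, and COL1A2 overlapped. Endothelial marker sums stayed at or under 0.692 FPKM in every library.

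All 10 genes passed the filter of FPKM of at least 1 in at least 3 libraries, and each was at FPKM of at least 6 in every library. MCM4, MCM5, MCM6, MCM7 and MCM10 rose with circ_0005358, and none of the 10 fell (limma on log2(FPKM + 1), Benjamini-Hochberg adjusted over all loci tested). The 5 of 10 that rose stand beside 6.41% of the 10295 tested loci that rose and 4.96% that fell. That balance over all loci turned with the scaling: 660 rose and 511 fell, and with libraries rescaled to the same sum 531 rose and 567 fell, with 4 members higher and none lower. The count of members was 3 without vector replicate 1, 4 without any 1 of vector replicate 2, vector replicate 3, circ_0005358 replicate 1 or circ_0005358 replicate 2, and 5 without circ_0005358 replicate 3. Groups did not overlap, with circ_0005358 higher, for 7 of the 10 genes, against 19.8% of the tested loci, and with circ_0005358 lower for none, against 15.9%. The median log2 fold change of the 10 genes was 0.36, and that of all tested loci was 0.02. Because the set was chosen with earlier results of these data known, these counts and medians only describe it. In bulk RNA, a larger share of cells in the phases that use these genes and more RNA per cell cannot be told apart.

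**Figure D1:**
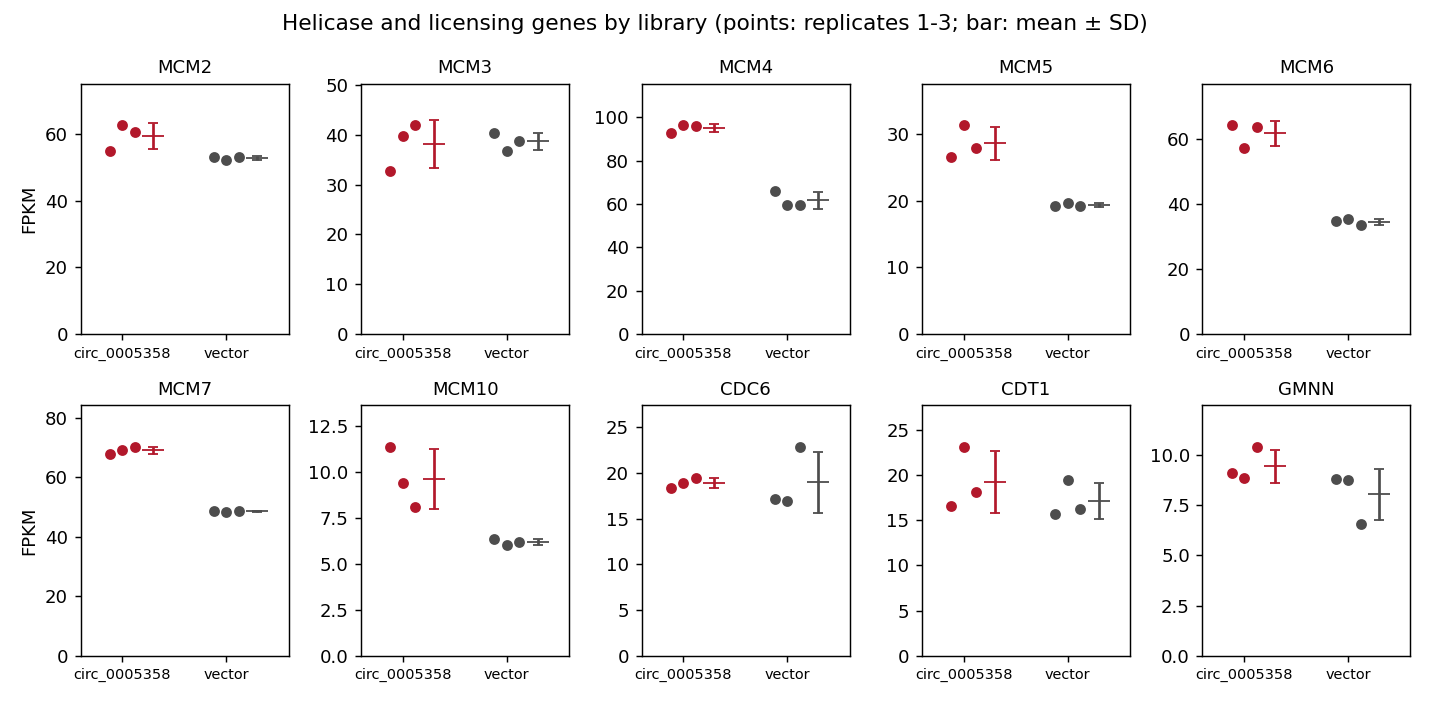
FPKM of the 10 genes in each library, with circ_0005358 replicates 1 to 3 at the left and vector replicates 1 to 3 at the right of each panel, and a bar for the mean ± SD (n = 3). The groups stand apart most clearly for MCM4, MCM6 and MCM7, while MCM3, CDC6 and CDT1 overlap.

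MCM6, a subunit of the MCM4, MCM6 and MCM7 core of the ring, had the largest log2 fold change of the 10 genes. It stood at 64.3, 57.3 and 63.8 FPKM with circ_0005358, against 34.9, 35.3 and 33.5 FPKM with vector. Every circ_0005358 library lay far above every vector library, with a ratio of means of 1.79. The log2 fold change was 0.82 (standard error 0.063, limma adjusted p = 0.00185). It passed the test under all 20 alternative settings, with adjusted p between 0.00123 and 0.0416. A looser threshold of 0.1 is among the 20 and could not remove a call. The exact permutation test of 3 against 3 libraries gave p = 0.1 for MCM6, the smallest value it allows, and the same for each of the 7 genes whose groups did not overlap.

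MCM7, another subunit of that core, stood at 67.9, 69.3 and 70.2 FPKM with circ_0005358, against 48.6, 48.2 and 48.7 FPKM with vector. The replicates of each group lay closer together than for any other of the 10 genes relative to the level, and the log2 fold change was 0.50 (standard error 0.042, limma adjusted p = 0.00237). MCM4, the most abundant of the 10 transcripts, stood at 92.8, 96.3 and 96.2 FPKM with circ_0005358, against 66.1, 59.4 and 59.6 FPKM with vector. Its log2 fold change was 0.62 (standard error 0.060, limma adjusted p = 0.00398), and the groups did not overlap. MCM4 and MCM7 kept their calls when any 1 library was left out, with adjusted p up to 0.0247 for MCM4 and up to 0.0191 for MCM7.

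MCM5, which forms with MCM2 the gate through which DNA enters the ring, was the least abundant subunit transcript. It stood at 26.6, 31.4 and 27.9 FPKM with circ_0005358, against 19.2, 19.7 and 19.2 FPKM with vector, which on the log2 scale was 0.54 higher (standard error 0.072, limma adjusted p = 0.0107). The groups did not overlap. Without vector replicate 1, MCM5 no longer passed (adjusted p = 0.0506), at a nearly equal log2 fold change of 0.53.

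MCM2, the other side of the gate and a histone-binding subunit, stood at 55.0, 62.7 and 60.6 FPKM with circ_0005358, against 53.3, 52.4 and 53.2 FPKM with vector. The groups did not overlap, yet circ_0005358 replicate 1 lay close to the vector libraries. The log2 fold change of 0.16 did not pass the test (limma adjusted p = 0.174), and its 95% interval ran from 0.0044 to 0.32. MCM3, which pairs with MCM5 in the ring, stood at 32.7, 39.8 and 41.9 FPKM with circ_0005358, against 40.3, 36.8 and 38.8 FPKM with vector. Here the groups overlapped, and circ_0005358 replicate 1 was the lowest of the 6 libraries. The log2 fold change of -0.03 had a 95% interval from -0.29 to 0.23 (limma adjusted p = 0.898), which lies below the fold changes of MCM4, MCM5, MCM6 and MCM7. The interval of MCM2 likewise ended below those 4 values. The difference between one gene's fold change and another's was not tested.

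**Figure D2:**
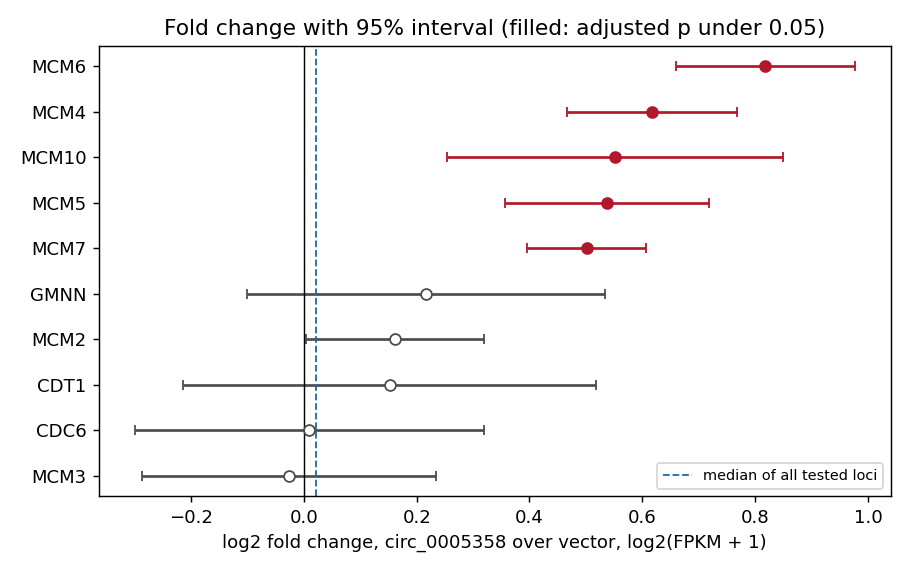
Log2 fold change of each gene, circ_0005358 over vector on the log2(FPKM + 1) scale, as points with 95% intervals from limma; filled red points passed the test and the dashed line is the median of all tested loci (0.02). The 5 genes that passed lie between 0.50 and 0.82 and the other 5 between -0.03 and 0.22.

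The summed level of MCM2 to MCM7 was 339, 357 and 361 FPKM with circ_0005358, against 263, 252 and 253 FPKM with vector. The means were 352 ± 11.4 FPKM with circ_0005358 and 256 ± 5.88 FPKM with vector (SD, n = 3 each), a ratio of 1.38. The sum made up 0.245% of all FPKM with circ_0005358 and 0.183% with vector. The subunits did not keep their proportions. MCM6 held 16.1% to 18.9% of the sum in circ_0005358 libraries and 13.2% to 14.0% in vector libraries, and MCM4 held 26.7% to 27.4% in circ_0005358 libraries and 23.5% to 25.2% in vector libraries. MCM3 held 9.63% to 11.6% with circ_0005358 and 14.6% to 15.4% with vector, and MCM2 held 16.2% to 17.6% with circ_0005358 and 20.3% to 21.0% with vector. MCM7 held 19.4% to 20.0% with circ_0005358 and 18.5% to 19.3% with vector. The ranges of these 5 shares did not overlap between groups, with circ_0005358 higher for MCM4, MCM6 and MCM7 and lower for MCM2 and MCM3. The share of MCM5 overlapped, at 7.74% to 8.79% with circ_0005358 and 7.32% to 7.83% with vector. The most abundant subunit transcript stood 3.07 to 3.48 times above the least abundant one with circ_0005358 and 3.02 to 3.44 times with vector. Shares of a sum are bound to each other and were given no test.

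**Figure D3:**
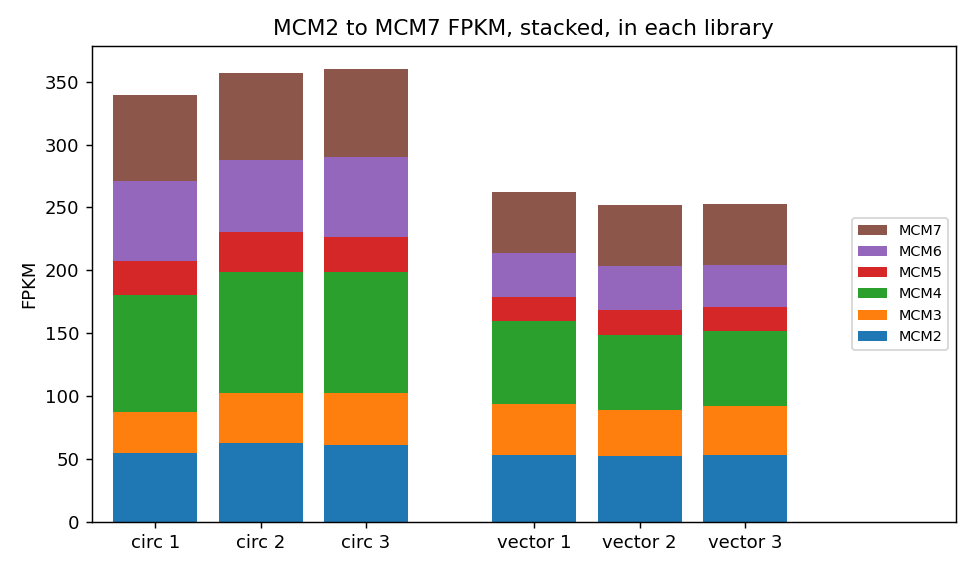
FPKM of MCM2 to MCM7 stacked in each of the 6 libraries, circ_0005358 replicates 1 to 3 at the left and vector replicates 1 to 3 at the right. The stacks reach 339 to 361 FPKM with circ_0005358 and 252 to 263 FPKM with vector, and the MCM6 and MCM4 blocks are taller with circ_0005358.

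In the order of levels with circ_0005358, MCM4 (95.1 FPKM) was followed by MCM7 (69.1), MCM6 (61.8), MCM2 (59.4), MCM3 (38.1) and MCM5 (28.6), and only MCM6 and MCM2 overlapped among these neighbours. With vector the order was MCM4 (61.7 FPKM), MCM2 (53.0), MCM7 (48.5), MCM3 (38.7), MCM6 (34.6) and MCM5 (19.4), with no overlap between neighbours. MCM6 was thus above MCM3 in every circ_0005358 library and below it in every vector library. CDC6 and CDT1 overlapped each other in both groups, and CDC6 also overlapped MCM5 with vector. MCM10 and GMNN, the lowest of the 10, overlapped with circ_0005358 and not with vector, where GMNN was the higher.

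MCM10, which helps to start the loaded helicase, stood at 11.3, 9.37 and 8.10 FPKM with circ_0005358, against 6.33, 6.02 and 6.18 FPKM with vector. The vector libraries were nearly level, while the circ_0005358 libraries were spread out but all higher. The log2 fold change was 0.55 (standard error 0.12, limma adjusted p = 0.0428), close to the threshold of 0.05. The call was lost without circ_0005358 replicate 1 (adjusted p = 0.0560) or replicate 2 (0.106) and without vector replicate 1 (0.117), 2 (0.135) or 3 (0.115), and was kept without circ_0005358 replicate 3 (0.0379). It was also lost when libraries were rescaled to the same sum (0.0547), shifted to the same median (0.0550) or quantile normalized (0.0565), and with no filter on low values (0.114).

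The loading factors did not pass the test. CDC6, an ATPase that brings the ring to origins, stood at 18.4, 18.9 and 19.5 FPKM with circ_0005358, against 17.1, 17.0 and 22.8 FPKM with vector. Vector replicate 3 was the highest of the 6, the groups overlapped, and the log2 fold change of 0.01 had a 95% interval from -0.30 to 0.32 (limma adjusted p = 0.969). Its sign turned under 6 of the 20 alternatives. CDT1, which CDC6 works with, stood at 16.6, 23.1 and 18.1 FPKM with circ_0005358, against 15.7, 19.5 and 16.3 FPKM with vector. Replicate 2 was the highest in both groups, and the log2 fold change of 0.15 had a 95% interval from -0.21 to 0.52 (limma adjusted p = 0.564).

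GMNN, the inhibitor of CDT1, stood at 9.08, 8.87 and 10.4 FPKM with circ_0005358, against 8.81, 8.74 and 6.57 FPKM with vector. The groups did not overlap but touched, since the lowest circ_0005358 library and the highest vector library differed by less than the spread within either group. The log2 fold change of 0.22 did not pass the test (limma adjusted p = 0.343, 95% interval from -0.10 to 0.53). CDT1 stood at 1.83, 2.61 and 1.74 times the level of GMNN with circ_0005358, against 1.78, 2.23 and 2.47 times with vector. The groups overlapped, with a difference of -0.08 on the log2 scale (exact two-sided permutation p = 0.9), and the sign turned without circ_0005358 replicate 3 (0.026) and without vector replicate 3 (0.022).

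The promoters of MCM6, MCM7, MCM10 and MCM3 are shown because 3 of these genes rose and MCM3 did not. RefSeq windows of 250 bases before to 50 after a transcript start (GRCh38.p14) were searched. Counted are 11 windows of 8 of the 10 genes, with several starts for MCM7 and GMNN. Printed 5′ to 3′ on the gene's strand is the stretch before the start that holds no annotated exon, with E2F words and CCAAT boxes in capitals.
MCM6 (chr2:135876444-135876693, minus strand): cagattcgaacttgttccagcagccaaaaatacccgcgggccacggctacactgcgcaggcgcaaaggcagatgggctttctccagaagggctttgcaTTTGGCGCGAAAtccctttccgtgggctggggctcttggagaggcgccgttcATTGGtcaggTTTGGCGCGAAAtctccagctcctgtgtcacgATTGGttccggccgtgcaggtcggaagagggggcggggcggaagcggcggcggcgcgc
MCM7 (chr7:100100781-100101004, minus strand): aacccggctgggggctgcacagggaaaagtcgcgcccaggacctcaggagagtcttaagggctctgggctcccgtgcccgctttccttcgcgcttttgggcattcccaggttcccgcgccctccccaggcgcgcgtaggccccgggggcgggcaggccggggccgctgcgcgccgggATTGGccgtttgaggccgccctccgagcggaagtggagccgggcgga
MCM10 (chr10:13161308-13161553, plus strand): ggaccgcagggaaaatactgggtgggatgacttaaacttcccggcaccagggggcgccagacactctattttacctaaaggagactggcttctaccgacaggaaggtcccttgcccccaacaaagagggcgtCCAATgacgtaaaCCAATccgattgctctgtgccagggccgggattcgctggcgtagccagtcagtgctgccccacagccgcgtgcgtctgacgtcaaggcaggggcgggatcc
MCM3 (chr6:52284882-52284992, minus strand): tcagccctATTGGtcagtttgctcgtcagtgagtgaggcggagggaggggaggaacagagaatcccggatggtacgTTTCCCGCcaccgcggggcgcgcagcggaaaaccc
The E2F words searched were TTTCCCGC, TTTCGCGC, TTTGCCGC and TTTGGCGC, and the box of the NF-Y factor was CCAAT, both on either strand. The MCM6 window holds 4 E2F words, in 2 overlapping pairs that begin at positions -152 and -90 from the start, and 2 CCAAT boxes between and after them. The MCM3 window, of a gene that did not pass the test, also holds E2F words, at -174 and across the start at -4, and 3 CCAAT boxes. The MCM10 window, of a gene that rose, holds 2 CCAAT boxes and no E2F word. The MCM7 stretch printed has a CCAAT box at -73, and the window of another MCM7 start, which overlaps exons of AP4M1, has E2F words at -187 and -9, the last of which shares a base with a CCAAT box. Over the windows counted, 7 of 11 held an E2F word, against 3.31% of the 35116 windows of all genes, and 8 of 11 held a CCAAT box, against 34.6%. The words TTTGAA and TTCGAA of the CHR element stood in 1 of 11 windows, against 16.4%, and the GC box GGGCGG in 9 of 11, against 45% of all windows. CDC6, CDT1 and GMNN, which did not pass the test, each had a window with an E2F word. Among the 8 genes covered, E2F words thus stood both in genes that rose and in genes that did not. MCM5 had no window at hand, and any window of MCM4 was left out of the counts, whatever words it held. These counts thus do not cover 2 of the 5 genes that rose. Any link of the words to the rise was not tested.

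The tested loci next to the members on the chromosome were also listed, 5 on each side, whatever their distance. Around MCM6 they lay from 30251 bases (DARS) to 8061642 bases (GTDC1) away. MCM6 (chromosome 2, 135839626 to 135876426, minus strand, GRCh38) had 2 neighbours, HNMT and GTDC1, that passed the filter only through the circ_0005358 libraries and so had to be higher there. Of the other 8 neighbours, 7 rose, beside 6.41% of all tested loci, and their median log2 fold change was 0.49, beside 0.82 for MCM6. All 8 were tested without each library in turn, and the number called was 3 without circ_0005358 replicate 1 or 3, 5 without circ_0005358 replicate 2, 4 without vector replicate 1 or 2 and 5 without vector replicate 3. DARS, an aminoacyl-tRNA synthetase gene on one side, averaged 29.1 FPKM with circ_0005358 and 19.7 FPKM with vector (log2 fold change 0.54, limma adjusted p = 0.00872). UBXN4, on the other side, averaged 55.9 FPKM with circ_0005358 and 39.1 FPKM with vector (log2 fold change 0.51, adjusted p = 0.0163), a call lost without circ_0005358 replicate 1 or 3 (adjusted p = 0.0560 and 0.0654).

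**Figure D4:**
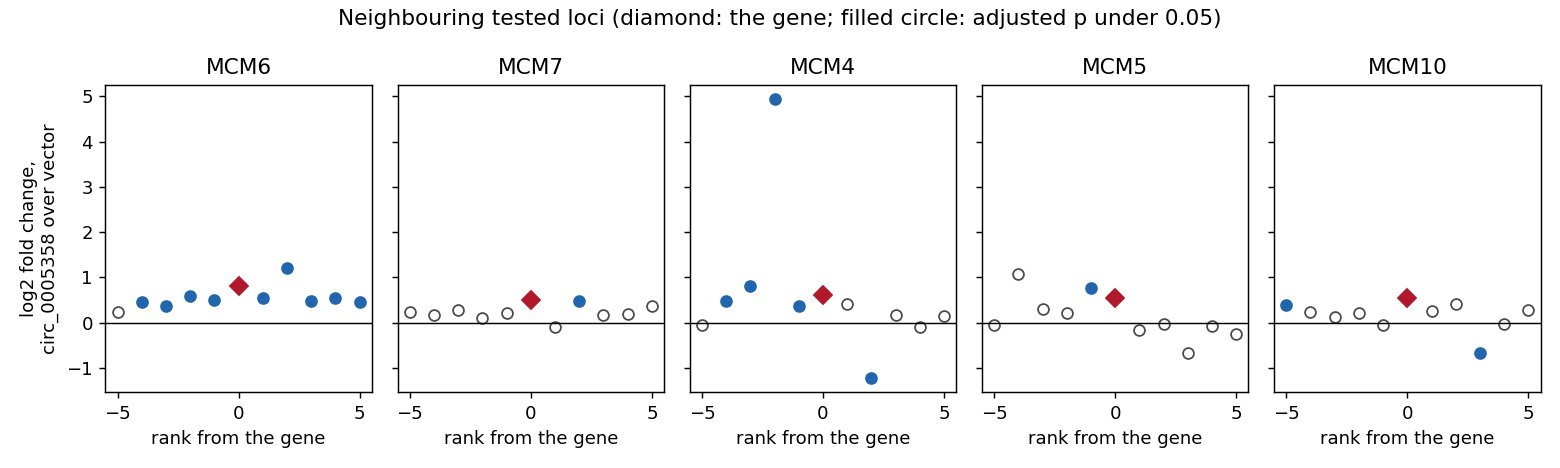
Log2 fold change, circ_0005358 over vector, of the 5 tested loci on each side of the 5 genes that rose, by rank of position; diamonds are the genes themselves and filled circles passed the test. HNMT and GTDC1 beside MCM6 and CEBPD beside MCM4 (filled, positive) and BEND7 beside MCM10 (filled, negative) passed the filter through 1 group only; of the others, 7 of 8 around MCM6 rose, 3 of 9 around MCM4 rose and 1 fell, and 1 each rose around MCM7, MCM5 and MCM10.

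MCM7 (chromosome 7, 100092728 to 100101940, minus strand) was above all 10 of its neighbours, whose median log2 fold change was 0.21. TAF6, a subunit gene of the general factor TFIID, was the 1 neighbour that rose, at 13.1 FPKM with circ_0005358 and 9.16 FPKM with vector (adjusted p = 0.0130), a call lost without circ_0005358 replicate 3 (0.0575) or vector replicate 2 (0.0502). AP4M1, which overlaps the start of MCM7 on the other strand, averaged 2.13 FPKM with circ_0005358 and 2.38 FPKM with vector (adjusted p = 0.552), and whether fragments were assigned by strand is not given in the sources used here. The same limit holds for MCM2 and TPRA1, which overlap at their starts and of which TPRA1 averaged 14.0 FPKM with circ_0005358 and 14.8 FPKM with vector (adjusted p = 0.557). MCM4 (chromosome 8, 47960185 to 47978160, plus strand) starts 2 bases from PRKDC, the gene of the DNA-dependent protein kinase on the other strand. PRKDC rose as well, at 101 FPKM with circ_0005358 and 77.6 FPKM with vector (log2 fold change 0.37, adjusted p = 0.0147), a call lost without vector replicate 2 (0.0601). CEBPD, also near MCM4, passed the filter only through the circ_0005358 libraries. Of the other 9 neighbours of MCM4, 3 rose and 1 fell. MCM5 (chromosome 22, 35400063 to 35425430, plus strand) had 1 neighbour that rose, HMOX1, the haem oxygenase gene, at 18.6 FPKM with circ_0005358 and 10.5 FPKM with vector (adjusted p = 0.0106). The median of its 10 neighbours was -0.04. MCM10 lay above all 10 of its neighbours, of which BEND7, which fell, passed the filter only through the vector libraries. Of the other 9, NUDT5 rose, a call lost without any 1 library (adjusted p from 0.0568 to 0.107), and the call of BEND7 was lost without circ_0005358 replicate 3 (0.0616), while without a vector library it was below the filter.

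A further 9 lists of genes that act before, with or after the helicase held 125 genes, of which 110 were tested, and 7 rose and 4 fell. That is 6.36% higher, beside 6.41% of all tested loci, and a median log2 fold change of 0.06. The number of list genes called was 3 without vector replicate 1 or 2 and 7 without circ_0005358 replicate 2. It was 6 without vector replicate 3, circ_0005358 replicate 1 or circ_0005358 replicate 3. Not all of these were among the 11. CDKN1A was called without vector replicate 1 and TICRR without vector replicate 3. TIPIN was called without circ_0005358 replicate 2, and CCNA2 and RAD1 without circ_0005358 replicate 3. Of the 11, ORC1 and CDK6 were the 2 that kept the call in each of these fits. CDK6 lay near the filter of 1 FPKM with circ_0005358. Without circ_0005358 replicate 1 it passed the filter only through the vector libraries, so in that fit it had to be lower with circ_0005358.

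Of the 6 origin recognition genes, which mark the sites where the ring is loaded, ORC1 rose and the other 5 did not pass. ORC1, the subunit whose level follows the cell cycle, stood at 14.5, 13.1 and 12.7 FPKM with circ_0005358, against 9.11, 8.91 and 9.03 FPKM with vector. The groups did not overlap (log2 fold change 0.53, standard error 0.066, limma adjusted p = 0.00839). Of 13 tested genes that activate the helicase, CDC45 rose, with 14.1, 13.9 and 14.6 FPKM with circ_0005358, against 10.9 to 11.1 FPKM in the 3 libraries with vector (log2 fold change 0.34, adjusted p = 0.0124). Its call was lost without circ_0005358 replicate 3 (0.0544) or vector replicate 1 (0.0551) or 2 (0.0598). The other 12 of these genes did not pass, among them the GINS subunits and the kinase CDC7, and the median over the list was 0.15. None of the 4 tested relatives and partners of the ring (MCM8, MCM9, MCMBP and KAT7) passed.

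Among 15 tested genes that control CDT1, CDC6 and geminin, 1 rose and 2 fell. CUL1, the scaffold of the SCF ubiquitin ligase, averaged 42.7 ± 3.51 FPKM with circ_0005358 and 28.8 ± 1.05 FPKM with vector (SD, n = 3 each; limma adjusted p = 0.0114), a call lost without vector replicate 1 (0.0506). USP37, a deubiquitinase, averaged 2.60 ± 0.330 FPKM with circ_0005358 and 4.56 ± 0.431 FPKM with vector (adjusted p = 0.0179), lost without circ_0005358 replicate 2 (0.0556) or vector replicate 1 (0.0719) or 2 (0.0710). CCNE1, the cyclin E1 gene, averaged 7.66 ± 0.132 FPKM with circ_0005358 and 10.2 ± 1.03 FPKM with vector (adjusted p = 0.0458). The CCNE1 call was lost without any 1 library (adjusted p from 0.0564 to 0.132).

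Of 20 tested polymerase, clamp and ligase genes, RFC2 and LIG1 rose and none fell. LIG1, the ligase of lagging-strand fragments, stood at 6.66, 8.57 and 7.07 FPKM with circ_0005358, against 4.54, 5.10 and 5.33 FPKM with vector (adjusted p = 0.0451), and RFC2, a clamp loader subunit, averaged 20.9 ± 0.873 FPKM with circ_0005358 and 17.3 ± 0.298 FPKM with vector (adjusted p = 0.0386). Both calls were lost without any 1 library (adjusted p from 0.0648 to 0.133 for LIG1 and from 0.0602 to 0.121 for RFC2). PCNA, the sliding clamp, stood at 136, 122 and 134 FPKM with circ_0005358, against 133, 135 and 129 FPKM with vector, with overlapping groups (adjusted p = 0.877). None of 8 tested fork protection genes passed.

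Of 8 tested genes of nucleotide supply, DTYMK and DUT rose. DTYMK, the thymidylate kinase gene, stood at 11.4, 12.2 and 12.4 FPKM with circ_0005358, against 8.95, 9.16 and 8.59 FPKM with vector (adjusted p = 0.0147), and its call was kept without circ_0005358 replicate 1 or 2 but not without any 1 of the other 4 libraries (adjusted p up to 0.0619). DUT, the dUTPase gene, averaged 22.0 ± 0.947 FPKM with circ_0005358 and 16.2 ± 1.86 FPKM with vector (adjusted p = 0.0455), lost without any 1 library (adjusted p from 0.0502 to 0.118).

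Of 19 tested E2F and RB regulators, CDK6 and MYBL2 fell and none rose, and the median was -0.04. CDK6, a kinase that phosphorylates RB, stood at 1.14, 0.917 and 0.953 FPKM with circ_0005358, against 2.51, 2.15 and 2.23 FPKM with vector (log2 fold change -0.72, adjusted p = 0.00548). MYBL2, a transcription factor of proliferating cells, averaged 76.2 ± 5.75 FPKM with circ_0005358 and 98.3 ± 4.84 FPKM with vector (adjusted p = 0.0372), a call kept only without circ_0005358 replicate 2 (adjusted p up to 0.108 without any other library). E2F1 stood at 15.6, 17.5 and 27.9 FPKM with circ_0005358, against 14.0, 24.6 and 26.2 FPKM with vector, so its groups overlapped widely. Of 18 tested mitotic genes, none passed (limma), with 3 at an unadjusted p under 0.05, and their median log2 fold change was 0.02.

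**Figure D5:**
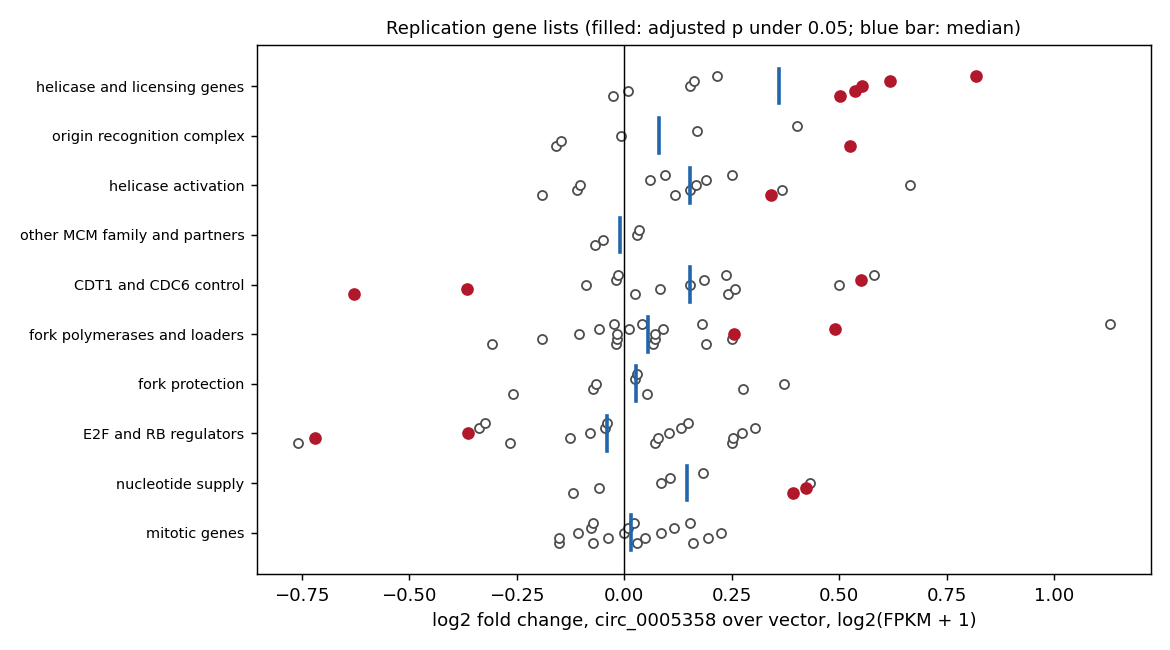
Log2 fold change, circ_0005358 over vector, of each tested gene in the helicase and licensing set and in 9 other lists; filled points passed the test and blue bars are medians. The helicase and licensing set has a median of 0.36, and the medians of the other lists lie between -0.04 and 0.15.

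The 8 genes outside the set whose log2 values over the 6 libraries were most like the mean of MCM2 to MCM7 were CRY1, TLL1, ECHS1, MZT2B, EIF2B5, ORMDL1, EIF3K and SON, with Pearson r from 0.989 to 0.995 over 6 libraries. In all, 728 of 10295 tested loci had r of at least 0.9, since the 6 points share the difference between the groups. TLL1, MZT2B and ORMDL1 passed the test and the other 5 did not. Within the set, r with that mean was 0.90 to 0.96 for MCM2, MCM4, MCM5, MCM6 and MCM7, which are part of it, 0.23 for MCM3, which is too, 0.73 for MCM10, 0.63 for GMNN, 0.53 for CDT1 and 0.07 for CDC6.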

How the data were processed

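PolyA RNA of 6 SiHa libraries was sequenced, 3 per plasmid. The authors deposited 1 table of FPKM values for 35544 loci, per the file headers. Trimmomatic, HISAT2 and hg19 were used, per the submitters' processing notes; the versions, the FPKM program, its annotation and its use of strand: not given in the sources used here. The table holds no read counts, so depth is known only in relative terms, from what a single fragment is worth in FPKM. Coordinates and gene types are from GENCODE 29 (GRCh38), matched by symbol, not from the build of the alignment.

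Tests used limma 3.58.1 in R 4.3.3 on log2(FPKM + 1) of loci that reached 1 FPKM in 3 or more libraries. They were two-sided, the prior variance followed the mean level, and Benjamini-Hochberg adjustment covered all tested loci at a threshold of 0.05. Fold changes on this scale understate those of low genes. Each library was left out in turn, and pseudocount, filter, scaling, variance model, weighting, blocking by replicate number and threshold were varied. A fit without circ_0005358 replicate 2 and vector replicate 3 was chosen after seeing the data. The fit was tested on simulated data. A symbol with several rows went to the row of highest mean; rows joining several genes stood for a gene when 1 name was protein-coding. The members and lists were chosen with earlier results of these data known. Named are all members, list genes past the threshold (at most 6 a list), the 8 most alike genes and, where of use, any of the 2 nearest neighbours on each side of a gene that rose. TPRA1, GTDC1, NUDT5, BEND7, PCNA, E2F1, the genes of the lists that are named without passing, the markers and the genes under other observations were chosen after their values were seen.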

Additional observations from a re-analysis of the deposited data

How the results depend on the processing

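MCM6 passed the test under all 20 alternatives, MCM7 under 19 and MCM4 under 18, and MCM5 kept its call under 16 and MCM10 under 8. These counts include the threshold of 0.1, which could not remove a call. Of all loci, 1171 changed, against 591 when low loci were kept, 416 at a threshold of 0.01, 1871 at 0.1, 485 to 761 without 1 library and 198 when circ_0005358 replicate 2 and vector replicate 3 were both left out. The number of members that rose was 5, and it was 3 at a threshold of 0.01, 3 to 5 without 1 library and 1 (MCM6) without both of those libraries, where the adjusted p was 0.0738 for MCM4, 0.0687 for MCM5, 0.0517 for MCM7 and 0.218 for MCM10. Of the other lists, 11 genes were called, against 5 with no filter, 2 at 0.01 and 17 at 0.1. The number was 3 to 7 without 1 library and 1 without both, and the genes called were not always among the 11. The cause of these shifts was not tested, except that fewer libraries leave fewer degrees of freedom. Among genes that did not pass, the sign of CDC6 turned on rescaling to the same sum (-0.025), on a shift to the same median (-0.010) and on quantile normalization (-0.014), and its log2 fold change ran from -0.060 to 0.14 without 1 library. MCM3 ran from -0.10 to 0.08 without 1 library, CDT1 from 0.020 (without circ_0005358 replicate 2) to 0.25 and GMNN from 0.093 (without vector replicate 3) to 0.28, CDT1 was -0.013 without both libraries, and the log2 ratio of CDT1 to GMNN ran from -0.26 to 0.026 without 1 library. The summed MCM2 to MCM7 level was 88.7 to 103 FPKM higher with circ_0005358 under every setting tried for it.

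Equal replicate numbers did not pair the libraries by the measure used: deviations from the group means correlated at 0.048 to 0.078 for equal numbers, under the 0.1 required, although each library correlated best with its own number (-0.054 to -0.011 for unequal numbers). With a replicate block 259 loci, 2 members (MCM6, adjusted p = 0.0416, and MCM7, 0.0495) and 1 gene of the other lists were called, with adjusted p of 0.0574 for MCM4, 0.0643 for MCM5 and 0.109 for MCM10. The paired CDT1 to GMNN difference was -0.08 (exact p = 1, where 0.25 is the smallest possible).

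Depth in absolute terms is unknown, so no counting interval was given, and 3 libraries a group cannot go below p = 0.1 in an exact test.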

Other observations

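Several genes of the replication lists had single libraries far from the others of their group, and were picked after their values were seen. GINS1, a subunit of the complex that activates the helicase, stood at 16.8, 5.59 and 4.73 FPKM with circ_0005358, against 16.8, 4.63 and 4.91 FPKM with vector, so that replicate 1 was about equally high in both groups. GINS2 stood at 11.7, 28.8 and 12.7 FPKM with circ_0005358, against 19.7, 8.74 and 20.1 FPKM with vector. POLE3, a small subunit of polymerase epsilon, stood at 63.8, 70.5 and 66.9 FPKM with circ_0005358, against 54.1, 56.8 and 8.45 FPKM with vector, and vector replicate 3 alone was low. CDKN1B, the p27 inhibitor gene, stood at 16.2, 3.58 and 13.5 FPKM with circ_0005358, against 2.56, 13.5 and 10.7 FPKM with vector. None of these 4 passed the test (limma adjusted p from 0.390 to 0.963).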
